A study of Mus musculus with 8 samples.

Results

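The results concern 1152 open-chromatin sites of mouse regulatory T (Treg) cells that lost accessibility between the central and the effector state in wild-type (WT) cells, and whose pooled level in effector cells was much the same when Pggt1b was deficient. They are 1.44% of the 79758 sites in the deposited table. The assay was ATAC-seq: a transposase inserts sequencing adapters where DNA is open. The 8 libraries form 4 groups of 2: WT cTreg, WT eTreg, Pggt1b-deficient cTreg and Pggt1b-deficient eTreg. The cells were Treg cells sorted from mixed bone marrow chimeras, and the tissue was spleen and lymph nodes. Here cTreg and eTreg stand for central and effector Treg cells. In the sources used here, the driver of the Pggt1b deletion, the age of the animals, the sort gates and whether libraries of 1 group had separate hosts are not given. The spread behind each p-value is thus that between libraries, and part of it may be technical. The comparison asks which chromatin differences between the 2 Treg states are kept when Pggt1b is missing.

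Treg cells restrain other immune cells and are specified by the transcription factor Foxp3. Central Treg cells are resting cells that circulate through lymphoid organs, and effector Treg cells arise from them after activation and act in inflamed or non-lymphoid tissue. Pggt1b encodes the catalytic beta subunit of protein prenyltransferase GGTase-I, the enzyme that attaches a geranylgeranyl lipid to proteins so that they reach membranes. In such a change of state, some regulatory elements open while others, open in the resting cell, close.

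The sites were chosen from measured values. Levels are CPM, a group's summed count at a site scaled by its summed count at all sites. Ratios between groups are on the log2(CPM + 0.5) scale. A member had a WT cTreg level of at least 4 CPM, a log2 ratio of WT eTreg over WT cTreg of -1 or less, and a log2 ratio of Pggt1b-deficient eTreg over WT eTreg between -0.5 and 0.5. The last condition is called the window. Of 38174 sites that met the first condition, 3805 also met the second and are called closed sites. The 1152 members are 30.3% of them. A further 2487 closed sites (65.4%) lay above the window and 166 (4.36%) below it.

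The rule used 6 of the 8 libraries, so the WT fall and the similarity of the eTreg groups are how the sites were picked and not results. Over the members the WT log2 ratio of eTreg over cTreg had a median of -1.27, with quartiles of -1.5 and -1.12. At 58 members it was -2 or less, and the lowest was -2.87. The log2 ratio of Pggt1b-deficient eTreg over WT eTreg had a median of 0.20, and it was above 0 at 809 members (70.2%). Members thus lay mostly in the upper part of the window. Pggt1b-deficient cTreg cells are the group that the rule left aside.

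The Pggt1b-deficient eTreg libraries were shallow, and this bears on every member. They held 2255214 and 1664702 counts, against 7153991 to 14974253 in the other 6 libraries. A member had a median of 14 counts over both of them, 746 members had under 20, and 38 and 44 members had no count in one or the other. In the remaining libraries every member was counted, with medians of 35 to 109 counts. Between 66.1% and 77.4% of the counts from 1 to 10 in a library were even numbers, so every 2 counts were treated as 1 observation in the intervals below. All intervals cover counting error only.

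At the members, both genotypes had a high level in cTreg cells and a low level in eTreg cells. Of the 4 group levels, only that in Pggt1b-deficient cTreg cells was left free by the rule. The median member level was 8.85 and 8.61 CPM in the WT cTreg libraries and 3.13 and 3.21 CPM in the WT eTreg libraries. In Pggt1b-deficient cells it was 9.15 and 8.53 CPM in cTreg and 3.55 and 4.20 CPM in eTreg. The medians of all 4 cTreg libraries lay above those of all 4 eTreg libraries. Among the libraries of each state they differed little, apart from the second Pggt1b-deficient eTreg library, which was the highest of the 4 eTreg libraries.

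**Figure D1:**
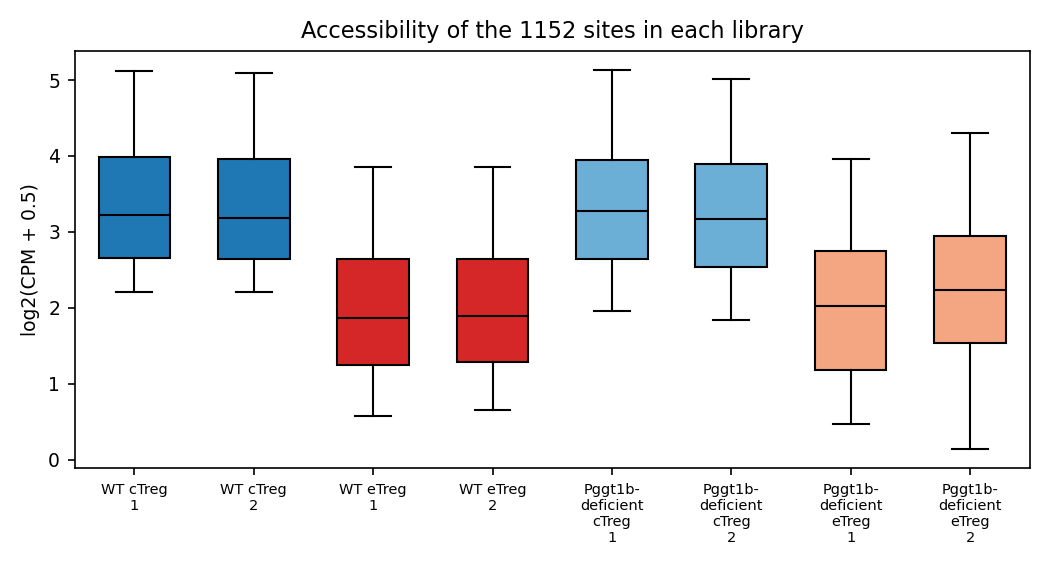
Each box shows the log2(CPM + 0.5) values of the 1152 members in 1 library, with the line at the median, the box at the quartiles and the whiskers at the 5th and 95th percentiles. The median levels were 8.53 to 9.15 CPM in the 4 cTreg libraries and 3.13 to 4.20 CPM in the 4 eTreg libraries; 6 of the 8 libraries were used to choose the sites.

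The summed counts restate these levels at the same sites as shares of each library. Members held 1.47% and 1.48% of all counts in the WT cTreg libraries and 0.563% and 0.570% in WT eTreg. They held 1.48% and 1.39% in Pggt1b-deficient cTreg and 0.588% and 0.740% in Pggt1b-deficient eTreg. As mean ± SD (n = 2) these are 1.48% ± 0.0092, 0.566% ± 0.0053, 1.44% ± 0.061 and 0.664% ± 0.108. With 2 libraries a group the lowest p of an exact permutation test is 0.33, and no test is given. The 2 cTreg groups overlapped. The 2 eTreg groups did not, although the members were chosen for similar eTreg levels. The closed sites above the window held 1.03% ± 0.014 of counts in WT eTreg and 2.39% ± 0.159 in Pggt1b-deficient eTreg (SD, n = 2).

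The members were one shoulder of a continuous distribution. Among all closed sites, the log2 ratio of Pggt1b-deficient eTreg over WT eTreg had a median of 0.76, with quartiles of 0.32 and 1.2. Counted in steps of 0.25 across the window from -0.5 to 0.5, there were 138, 205, 313 and 496 members. The next step above the window held 551 closed sites. No gap separated members from their neighbours on this scale.

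**Figure D2:**
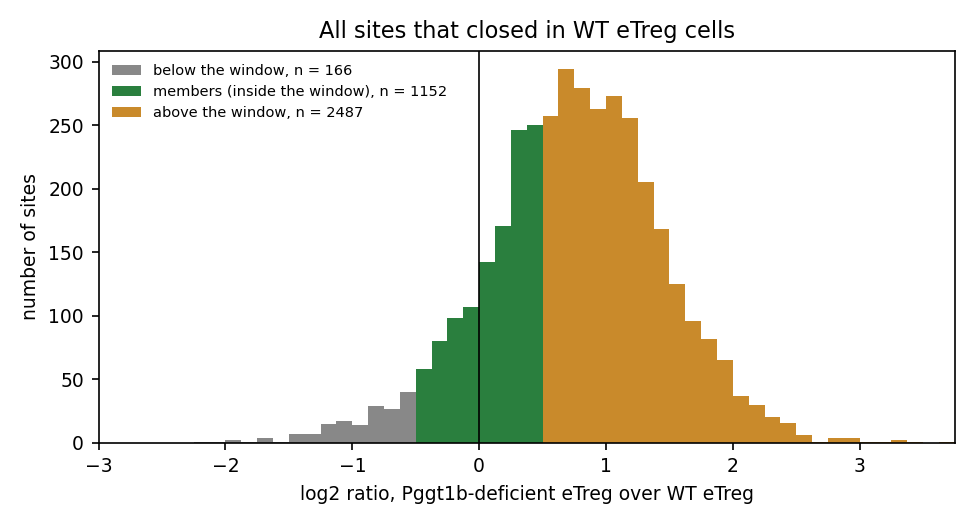
Histogram of the log2 ratio of Pggt1b-deficient eTreg over WT eTreg for the 3805 closed sites, with the 1152 members in green, 2487 sites above the window in orange and 166 sites below it in grey. The counts rise through the members toward the peak of the distribution above the window, whose median is 0.76.

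Each of the 2 Pggt1b-deficient eTreg libraries alone placed fewer members in the window. Set against pooled WT eTreg, 766 members (66.5%) lay inside it in the first library and 613 (53.2%) in the second. In both libraries 409 members (35.5%) lay inside, and 182 (15.8%) lay above the window in one library and below it in the other. The second library had 396 members above and 143 below, and the first had 160 above and 226 below. The median log2 ratio of Pggt1b-deficient eTreg over WT eTreg, taken between single libraries, was 0.04 and 0.02 for the first library and 0.32 and 0.30 for the second.

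The rule was also applied to the libraries numbered 1 alone and the chosen sites were read in those numbered 2, and the reverse. The first choice gave 1367 sites, and 1339 of them had a WT log2 ratio below 0 in the other libraries. The WT condition of -1 or less held at 830 (60.7%), and the window at 523 (38.3%), against 30.5% of all sites closed in the first libraries. All 3 conditions held at 246 (18.0%). The reverse choice gave 1071 sites, of which 1062 had a WT log2 ratio below 0. There the WT condition held at 693 (64.7%), the window at 435 (40.6%, against 32.6% of all closed sites), and all 3 conditions at 246 (23.0%). A WT ratio below 0 was thus seen again at nearly every site, with medians of -1.14 and -1.19. Over all sites with a WT cTreg level of 4 CPM or more the pooled WT ratio had a median of -0.08. By their own thresholds, the WT condition was met again at 60.7% and 64.7% of the sites, and the window at 38.3% and 40.6%.

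In the libraries that did not choose them, these sites had a lower median log2 ratio between the eTreg groups than all closed sites. For the sites chosen in the first libraries the median log2 ratio of Pggt1b-deficient eTreg over WT eTreg moved from 0.12 to 0.48. It was 0.68 over all closed sites and 0.88 over those chosen as above the window. For the reverse choice it moved from 0.18 to 0.28, beside 0.59 and 0.77. The order of the classes was the same in both readings. The label under which the sites were collected, closed regardless of Pggt1b, therefore describes the pooled values of this set. It is not established site by site, and the sites are called by their rule here.

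Counting error at single sites points the same way. With every 2 counts as 1 observation, the 95% Clopper-Pearson interval of the log2 ratio between the eTreg groups had a median width of 2.55. It lay wholly between -1 and 1 at 152 members (13.2%) and wholly inside the window at 2. Both of these are on chromosome 4, at chr4:6902613-6903421 and chr4:15200364-15200820 (mm9), and they were singled out after their values were seen. At 8 members the interval lay above 0, and at 1128 it reached 0.5 or more. At most members a difference of the size that the rule excludes was within the counting error.

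In Pggt1b-deficient cTreg cells, the group that did not enter the rule, the members' levels lay close to those in WT cTreg cells. The log2 ratio of Pggt1b-deficient over WT cTreg had a median of -0.05 over the members, with quartiles of -0.26 and 0.15. Over all 38174 sites with a WT cTreg level of 4 CPM or more the median was -0.01. Between single libraries the members' medians were 0.00 and -0.01 for the first Pggt1b-deficient cTreg library and -0.09 and -0.10 for the second. At 1008 members (87.5%) the ratio lay between -0.5 and 0.5, against 88.2% of all sites at that level, and it was -0.5 or less at 112 and 0.5 or more at 32. The WT cTreg level was part of the rule, and sites chosen for a high value there can read lower in another group. Closed sites above the window had a median of 0.14, and 0.08 to 0.19 between single libraries.

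**Figure D3:**
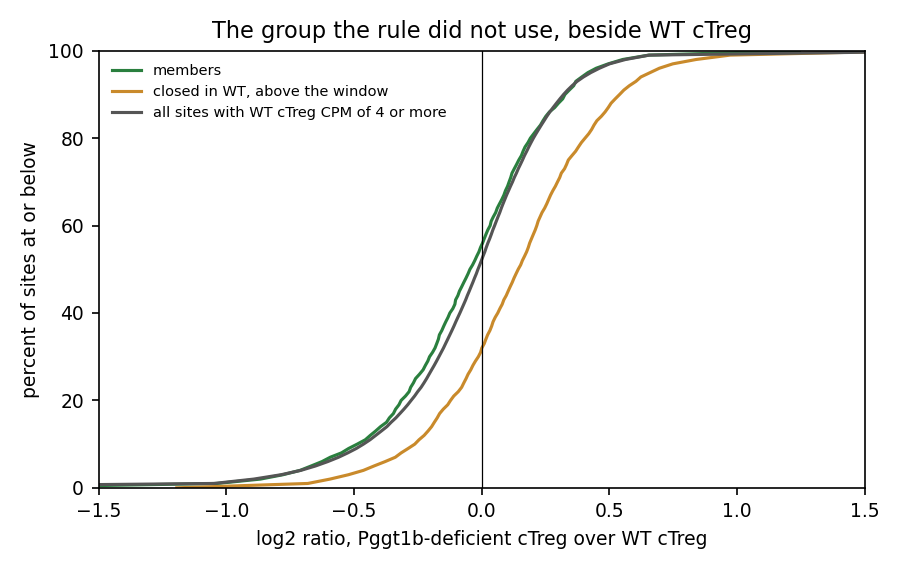
Cumulative distribution of the log2 ratio of Pggt1b-deficient cTreg over WT cTreg, with the percent of sites at or below each value on the vertical axis. The curve of the members (green, median -0.05) runs close to that of all sites with a WT cTreg level of 4 CPM or more (grey, median -0.01), and closed sites above the window (orange, median 0.14) lie to the right.

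By single library, both Pggt1b-deficient cTreg libraries were above both WT cTreg libraries at 225 members (19.5%), where the background over all sites is 20.6%. They were below both at 322 members (28.0%), where it is 26.4%. In edgeR's quasi-likelihood test with Benjamini-Hochberg adjustment over 75352 sites, 22 members were called between the cTreg groups at an adjusted p under 0.05 (1.91%, where 2.21% of all sites were called). Of these, 18 were lower (1.56% of members) and 4 higher (0.347%) in Pggt1b-deficient cells. Over all sites tested 1.69% were called lower and 0.53% higher. The members' shares lay near this background. DESeq2 called 6 members, and 1.15% of all sites. With 1 cTreg library left out, the members' median edgeR log2 fold change ran from -0.11 to 0.00, beside -0.05 in the main fit.

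The 4 members called higher in Pggt1b-deficient cTreg were chr16:78248046-78248171, chr17:19106196-19106255, chr3:9719106-9719290 and chr3:58934298-58934729. At the chromosome 16 site the WT cTreg libraries had 3.44 and 6.0 CPM and the Pggt1b-deficient cTreg libraries 14.5 and 8.81 CPM. The edgeR log2 fold change was 1.30 ± 0.30 (SE, adjusted p = 0.0106). At the chromosome 17 site the levels were 6.56 and 5.29 CPM against 14.1 and 12.7 CPM, and edgeR gave 1.18 ± 0.26 on the log2 scale (SE, adjusted p = 0.00849). In neither case did the cTreg groups overlap. Pggt1b-deficient eTreg levels there were 3.55 and 2.40 CPM and 1.77 and 3.6 CPM. Without the first WT cTreg library, or without the first Pggt1b-deficient cTreg library, none of the 4 was called.

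The 4 named members called lower in Pggt1b-deficient cTreg had the largest fold changes of the 18. At chr11:45478910-45479065 the WT cTreg libraries had 12.9 and 13.7 CPM, and the Pggt1b-deficient cTreg libraries 4.07 and 1.54 CPM. The log2 fold change was -2.20 ± 0.31 (SE, edgeR adjusted p = 2.03e-05). This call held in all 15 alternative settings, with adjusted p from 4.52e-08 to 0.0225. At chr2:140610484-140610687 the levels were 7.87 and 11.2 CPM against 1.58 and 3.08 CPM, and edgeR gave -2.07 ± 0.35 on the log2 scale (SE, adjusted p = 0.000249). At both sites every Pggt1b-deficient cTreg library was below every WT cTreg library. A further site, chr11:64569091-64569267, had 8.85 and 9.40 CPM in WT and 3.61 and 1.12 CPM in Pggt1b-deficient cTreg. The last, chr16:70007264-70007442, had 18.9 and 11.4 CPM against 6.10 and 3.91 CPM. These 3 calls were less stable: the chromosome 2 site was lost in 3 of 14 alternatives (adjusted p up to 0.0631), chr11:64569091-64569267 in 3 of 13 (up to 0.145) and the chromosome 16 site in 2 of 15 (up to 0.423). Of these, the losses with 1 library left out were without the second WT cTreg or the first Pggt1b-deficient cTreg library, without either WT cTreg or the second Pggt1b-deficient cTreg library, and without the first WT cTreg library, respectively.

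The fall from cTreg to eTreg in Pggt1b-deficient cells is in part fixed by the rule. On the log scale it equals the WT fall plus the ratio between the eTreg groups minus the ratio between the cTreg groups, and only the last was free. Over the members the log2 ratio of Pggt1b-deficient eTreg over Pggt1b-deficient cTreg had a median of -1.10, with quartiles of -1.47 and -0.82. It was below 0 at 1143 of 1152 members and -1 or less at 691 (60.0%), where the background over all sites is 11.6%. All sites with a WT cTreg level of 4 CPM or more had a median of -0.08, and closed sites above the window -0.58. Between single libraries the members' medians were -1.31 and -1.24 with the first Pggt1b-deficient eTreg library and -1.03 and -0.93 with the second.

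Library by library, both Pggt1b-deficient cTreg libraries were above both Pggt1b-deficient eTreg libraries at 1021 members (88.6%), with a background of 29.4% over all sites. They were below both at 2 members, against 19.8% of all sites, and these 2 are the chromosome 11 and chromosome 2 sites at the head of the list of falls above. All 4 cTreg libraries were above all 4 eTreg libraries at 1004 members (87.2%), with a background of 11.8%. In closed sites above the window that share was 49.8%. edgeR called 534 members (46.4%) lower in Pggt1b-deficient eTreg than in Pggt1b-deficient cTreg, where 4.52% of all sites were called lower and 4.59% higher. No member was called higher. Since the rule used the eTreg side of this contrast, nothing is read from the excess. At an unadjusted p under 0.05, 869 members were lower, a cut at which the share over all sites is not given. With 1 Pggt1b-deficient library left out, the members' median edgeR log2 fold change ran from -1.38 to -1.09, beside -1.18 in the main fit.

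Called members had higher levels and larger falls. The rule used the WT cTreg level and the WT fall, so what follows is a description and nothing is read from it. Of all sites with a WT cTreg level of 4 CPM or more, 7.31% were called lower, a share not given here by level. The 534 called members had a median WT cTreg level of 12.4 CPM, a median width of 194 bp, a median of 18 counts over the Pggt1b-deficient eTreg libraries and a median edgeR log2 fold change of -1.53. The other 618 had 6.94 CPM, 135.5 bp and 12 counts, and a median edgeR log2 fold change of -0.95. By WT cTreg level, the called share was 28.7% of 516 members at 4 to 8 CPM, 50.9% of 369 at 8 to 16 CPM, 70.1% of 201 at 16 to 32 CPM and 86.4% of 66 at 32 CPM or more. By WT log2 ratio it was 33.4% between -1.25 and -1, 47.3% down to -1.5, 69.0% down to -2 and 72.4% at -2 or less. The share of closed sites that were members hardly followed the level: 28.8%, 31.3%, 33.7% and 27.8% in the order of the levels.

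**Figure D4:**
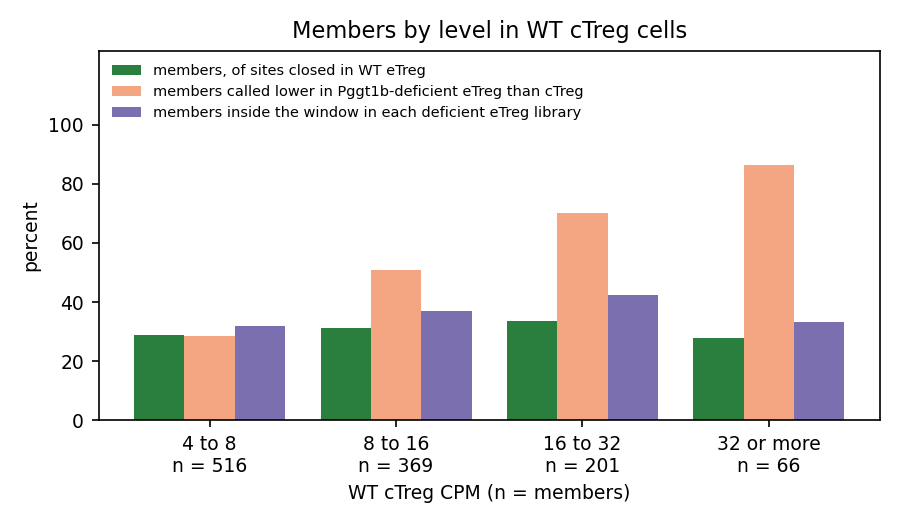
Percent of closed sites that were members (green), of members that edgeR called lower in Pggt1b-deficient eTreg than in Pggt1b-deficient cTreg (salmon), and of members inside the window in both Pggt1b-deficient eTreg libraries at once (purple), by WT cTreg level. The called share rises from 28.7% to 86.4%, while the share of members stays between 27.8% and 33.7%. The rule used the WT cTreg level and the eTreg groups, so the rise is a description only.

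Membership did follow the depth of the WT fall, which is itself part of the rule. Of closed sites with a WT log2 ratio between -1.25 and -1, 41.9% were members. The share was 34.6% down to -1.5, 22.4% down to -2, and 10.5% at -2 or less, where 58 of 553 closed sites were members. At the same steps the share of sites above the window was 52.1%, 60.8%, 73.8% and 88.2%. The WT eTreg level stands in both ratios with opposite sign, so a low reading there raises one and lowers the other. The members' ratio between the cTreg groups did not follow these steps, with medians of -0.06, -0.03, -0.04 and -0.01.

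Among the 66 members at 32 CPM or more, where counts were highest, the median log2 ratio between the eTreg groups was 0.32. All closed sites at that level had a median of 0.73. A window cut from such values keeps mostly those above 0, so nothing is read from the members' median. At 22 of the 66 (33.3%) both Pggt1b-deficient eTreg libraries lay in the window. At 62 of them the counting interval lay between -1 and 1. At 62 all 4 cTreg libraries were above all 4 eTreg libraries, and 57 were called lower in Pggt1b-deficient eTreg than in Pggt1b-deficient cTreg. Over all sites with a WT cTreg level of 4 CPM or more, a background not matched for level, these shares were 15.8% and 7.31%. Both counts rest in part on libraries that the rule used. With the rule applied to the libraries numbered 1, 83 sites reached that level, and in the other libraries 29 (34.9%) lay in the window, 63.9% above it and 1.2% below. In the reverse reading 58 sites were chosen, and 34 (58.6%) lay in the window, 29.3% above it and 12.1% below, so the tendency to lie above was not seen there to the same extent.

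The levels of the 6 members with the highest WT cTreg level follow one by one. At the highest, chr4:6902613-6903421, 808 bp wide, the levels were 128.0 and 147 CPM in WT cTreg and 60.1 and 60.8 CPM in WT eTreg. In Pggt1b-deficient cells they were 155 and 139 CPM in cTreg and 47.0 and 76.9 CPM in eTreg. The cTreg and eTreg libraries of each genotype did not overlap, while the 2 Pggt1b-deficient eTreg libraries lay on either side of WT eTreg. Between the cTreg groups the log2 fold change was 0.10 ± 0.10 (SE, edgeR adjusted p = 0.727). The interaction, the eTreg minus cTreg difference in Pggt1b-deficient cells less that in WT cells, was -0.14 ± 0.17 (SE, edgeR adjusted p = 0.749). It equals the ratio between the eTreg groups less that between the cTreg groups, and the rule held the former within the window. Small interactions at members are thus in part set by the rule, and nothing is read from them. The counting interval of the log2 ratio between the eTreg groups ran from -0.31 to 0.26.

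At chr3:38179008-38179487 the 4 groups were similarly ordered. WT cTreg had 87.5 and 83.9 CPM, WT eTreg 28.8 and 35.8 CPM, Pggt1b-deficient cTreg 91.3 and 91.4 CPM and Pggt1b-deficient eTreg 40.8 and 40.8 CPM. At chr10:118070504-118070994 the respective levels were 83.0 and 83.7, 34.3 and 38.9, 87.2 and 90.7, and 40.8 and 44.5 CPM. In both sites the Pggt1b-deficient eTreg libraries were above the WT eTreg libraries and far below every cTreg library. The interactions, in part held small by the rule, were 0.20 ± 0.17 (SE, edgeR adjusted p = 0.622) and 0.08 ± 0.17 (SE, adjusted p = 0.874).

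The other 3 of the 6, in the order below, had log2 ratios of Pggt1b-deficient eTreg over WT eTreg of 0.36, 0.37 and 0.49. The 3 sites above had -0.02, 0.31 and 0.19, so no clear step lay between these sites. At chr8:119721851-119722551 WT eTreg had 46.5 and 43.0 CPM and Pggt1b-deficient eTreg 56.8 and 57.7 CPM, below 101 and 101 CPM in WT cTreg and 92.6 and 85.0 CPM in Pggt1b-deficient cTreg. At chr18:89329365-89329698 they were 38.9 and 44.8 CPM against 47.9 and 63.7 CPM, with 95.2 and 94.6 CPM in WT cTreg and 95.2 and 77.9 CPM in Pggt1b-deficient cTreg. At chr10:95242156-95242786 they were 19.9 and 21.6 CPM against 28.4 and 31.2 CPM, with 82.4 and 88.3 CPM and 107 and 89.7 CPM in cTreg. In all 3 sites both Pggt1b-deficient eTreg libraries were above both WT eTreg libraries, and their counting intervals lay above 0. The chromosome 8 site had an interaction of 0.50 ± 0.16 (SE, edgeR adjusted p = 0.0917).

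**Figure D5:**
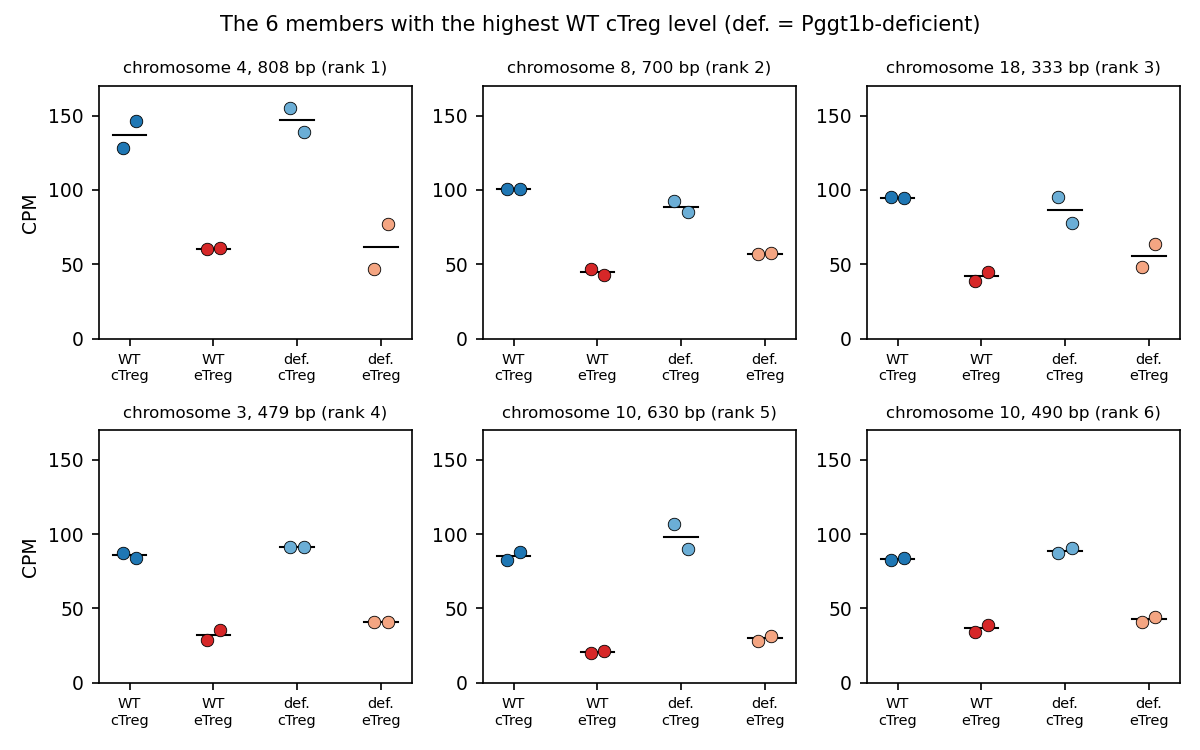
CPM of the 6 members with the highest WT cTreg level, each point 1 library and each line the mean of 2, with the chromosome and width above each panel. The cTreg points lie above the eTreg points of the same genotype in all 6 panels, and rank 1 is the 808 bp site whose WT cTreg levels are 128.0 and 147 CPM.

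The largest falls from cTreg to eTreg in Pggt1b-deficient cells, among members called there, were at sites with few counts in eTreg cells. Of the 8 named by fold change, 7 had 2 counts in all over the Pggt1b-deficient eTreg libraries, so their ratios have wide intervals. At chr9:112119724-112119956 the WT cTreg libraries had 5.66 and 5.13 CPM and WT eTreg 0.357 and 0.267 CPM. Pggt1b-deficient cTreg had 9.94 and 7.27 CPM, and Pggt1b-deficient eTreg 0.887 and 0 CPM. The ratio of Pggt1b-deficient cTreg over eTreg was 17.1, with a 95% interval from 2.98 to 687, beside 17.6 in WT (6.57 to 66.6). Its eTreg levels are of the size of the 0.5 added in log2(CPM + 0.5), which draws such ratios toward 0. Between the eTreg groups the log2 ratio was 0.33 on that scale, while the edgeR log2 fold change was 0.67 ± 1.24 (SE). At chr13:52195526-52195827, the one with 8 counts, the levels were 15.9 and 14.9 CPM, 2.59 and 1.07 CPM, 19.5 and 20.1 CPM, and 2.66 and 1.2 CPM in the same order. Its ratio was 9.70 (3.73 to 36.2), beside 8.96 in WT (5.69 to 14.2). It was called in all 15 alternative settings, with edgeR adjusted p = 2.83e-06 in the main one.

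The remaining 6 were chr13:24467862-24468013, chr1:130499093-130499183, chr19:21248654-21248774, chr10:118264322-118264421, chr5:64733525-64733600 and chr18:89514750-89514851, between 75 and 151 bp wide. Their WT cTreg levels were 3.52 to 6.97 CPM and their Pggt1b-deficient cTreg levels 3.63 to 9.51 CPM in single libraries. In eTreg libraries of either genotype they had at most 1.2 CPM. The edgeR log2 fold change between the eTreg groups was -0.76 to -0.71 at the sites on chromosomes 13, 19, 10 and 18. That is below the window, although the log2(CPM + 0.5) ratio was -0.41 at each. At the sites on chromosomes 1 and 5 the edgeR value was 0.12 and -0.44. The ratios of Pggt1b-deficient cTreg over eTreg ran from 9.79 to 16.9, and the lowest interval bound was 1.66. The chromosome 18 site was not called without the first Pggt1b-deficient cTreg library or without the second Pggt1b-deficient eTreg library. The chromosome 10 and chromosome 5 sites were not called without the first Pggt1b-deficient eTreg library. In limma-voom with group weights the sites on chromosomes 1, 19, 10, 5 and 18 were not called, with adjusted p over all alternatives of up to 0.111, 0.067, 0.139, 0.140 and 0.135, and DESeq2 did not call the chromosome 18 site.

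At 9 members the pooled Pggt1b-deficient eTreg level was at or above the Pggt1b-deficient cTreg level, so that no fall was seen in the deficient cells although all 3 conditions held. At the chromosome 11 site the Pggt1b-deficient eTreg libraries had 4.43 and 7.81 CPM, beside 4.29 and 4.81 CPM in WT eTreg. At the chromosome 2 site they had 3.55 and 3.6 CPM, beside 2.50 and 2.80 CPM. Neither site was high in eTreg cells, and both were low in Pggt1b-deficient cTreg cells. The chromosome 11 site is also the one member higher in Pggt1b-deficient eTreg than cTreg at an unadjusted p under 0.05 (edgeR adjusted p = 0.165).

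For the contrasts that chose the sites, counts are given only as a description. All 1152 members were called lower in WT eTreg than in WT cTreg, with a background of 14.9%. Between the eTreg groups 1 member was called, higher in Pggt1b-deficient cells, where 4.66% of sites were called higher and 6.43% lower. At an unadjusted p under 0.05, 18 members were higher, a cut at which the share over all sites is not given. DESeq2 called 0 members, and 7.76% of all sites. Without the first Pggt1b-deficient eTreg library 15 were called, without the second 17, and without any one of the other 6 libraries 0. The member called is chr15:3992946-3993903, with 38.3 and 36.9 CPM in WT eTreg and 47.0 and 55.3 CPM in Pggt1b-deficient eTreg. In the interaction 4 members were called, each with a higher eTreg minus cTreg difference in Pggt1b-deficient cells, where 0.957% of sites were called in that direction and 0.555% in the other. Without the first WT cTreg, the first WT eTreg or the second Pggt1b-deficient cTreg library 1 was called, without the second WT cTreg library 0, and without the second Pggt1b-deficient eTreg library 3 in the other direction. Among closed sites above the window 370 of 2487 (14.9%) were.

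The members' median width was 160 bp, with quartiles of 107 and 238 bp and a range of 13 to 1149 bp. All sites of the table had a median of 104 bp, so the members were wider than the typical site. They were narrower than the sites with a WT cTreg level of 4 CPM or more, which had a median of 219 bp. Only 0.434% of members were wider than 800 bp, against 6.75% of the sites at that level and 3.23% of all sites. Per 100 bp the median WT cTreg level was 6.0 CPM at members and 5.95 CPM at all sites at that level. Closed sites above the window were 159 bp wide in the median and had 5.77 CPM per 100 bp, values close to those of the members. The 2 widest members were chr4:98102102-98103251, at 1149 bp, and the chromosome 15 site named above, at 957 bp. The former had 43.3 and 49.1 CPM in WT cTreg, 22.5 and 22.4 CPM in WT eTreg, 48.0 and 52.8 CPM in Pggt1b-deficient cTreg and 35.5 and 22.8 CPM in Pggt1b-deficient eTreg.

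Most members stood alone among members. Joined over gaps of at most 10 kb they formed 1052 chains, of which 959 held 1 member, 87 held 2 and 6 held 3 or more. The largest held 4 members between chr4:15198480-15208481, among 8 sites, and no other closed site lay in it. Its highest member, chr4:15200364-15200820, had 72.6 and 72.9 CPM in WT cTreg and 28.1 and 33.9 CPM in WT eTreg. In Pggt1b-deficient cells it had 71.8 and 56.6 CPM in cTreg and 32.4 and 34.8 CPM in eTreg. A second chain held 3 members and no other site at chr4:6897572-6905959, including the member with the highest level. Another, at chr15:25839604-25845477, held 3 members among 6 sites. Its highest member, chr15:25840017-25840646, had 38.0 and 39.7 CPM and 10.7 and 12.5 CPM in WT cTreg and eTreg, and 31.8 and 28.9 CPM and 12 and 19.2 CPM in Pggt1b-deficient cTreg and eTreg.

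Closed sites lay near one another whether or not they were members. At 417 members (36.2%) another closed site lay within 10 kb, against 13.8% of all sites with a WT cTreg level of 4 CPM or more and 39.7% of closed sites above the window. Of 664 such neighbours of members, counted once per member, 216 (32.5%) were members, 413 (62.2%) lay above the window and 35 below it. Among all closed sites 30.3% were members. The neighbours that were not closed, 1699 sites, had a median WT log2 ratio of -0.46 and a median of -0.32 in Pggt1b-deficient cells, the same direction at a smaller size.

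Some stretches of 200 kb, picked out after their values were seen, held several closed sites. On chromosome 17 between 12.8 and 13 Mb all 6 closed sites were members, 5 of them called lower in Pggt1b-deficient eTreg than cTreg. On chromosome 6 between 115.6 and 115.8 Mb all 5 closed sites were members, 4 of them called. On chromosome 10 between 96 and 96.2 Mb 5 of 14 closed sites were members, and the other 9 lay above the window. On chromosome 4 between 15.2 and 15.4 Mb there were again 5 members and 9 sites above the window among 14. Members and sites above the window thus lay side by side in the same stretches. By chromosome, members made up from 0.991% (chromosome 19) to 4.17% (chromosome 16) of sites with a WT cTreg level of 4 CPM or more.

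The thresholds cut through sites with nearly equal values. The members chr3:98210631-98210711 and chr3:156073015-156073561 lay just inside the upper edge of the window, and the sites chr18:75464161-75464565 and chr6:142911000-142911257 just outside it, all with a log2 ratio of 0.50. At the lower edge chrX:13008680-13008900 and chr4:97773798-97773984 lay inside at -0.50, and chr16:75918078-75918252 and chr14:15916412-15916666 outside at -0.50 and -0.51. For the WT fall, chr10:3133287-3133461 and chr13:76270003-76270086 lay inside and chr15:11937621-11938225 and chr5:68212566-68212767 outside, all at -1.0. For the WT cTreg level, chr1:145765381-145765497 and chr7:71378520-71378591 had 100 counts over both libraries and lay inside, and chr8:89262038-89262188 and chr11:20442183-20442313 had 99 and lay outside.

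Sites are given by position on mm9, as in the deposited table, where it is not stated whether starts count from 0 or 1. The gene and sequence tables at hand belong to another mouse build, so no gene, promoter, motif or sequence is given for any member. The cTreg and eTreg labels were not checked against marker genes for the same reason.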

How the data were processed

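Chromatin accessibility was measured in 8 ATAC-seq libraries. The authors deposited 1 table of raw whole-number counts at 79758 non-overlapping sites. Per the submitters' processing notes the tools were MACS2 2.1.1, bedtools, Picard 2.9.4, SAMtools and Trimmomatic 0.36, and the build mm9. Not given in the sources used here: the aligner, read shift, peak threshold, pooling of libraries, and counting by read or by fragment. How sites were called could favour the deep libraries and leave out sites open only in the shallow ones.

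Groups came from sample titles. Levels, ratios and intervals were computed with Python 3.11.15, pandas 2.3.3 and scipy 1.17.1. Counts were tested in R 4.3.3 with edgeR 4.0.16 (filterByExpr, leaving 75352 sites, with all members among them; TMM; 1 mean per group over 8 libraries; two-sided quasi-likelihood tests, Benjamini-Hochberg over all sites), after a test on simulated data. A call is an adjusted p under 0.05. Alternatives used DESeq2 1.42.0, limma 3.58.1 and the settings in the closing section. The members and lists were chosen with earlier results of these data known. Pairs of counts, the level of 32 CPM and the 200 kb stretches were chosen after seeing the data.

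Sites were named by rule: the 6 highest in WT cTreg; the 8 largest falls in Pggt1b-deficient eTreg against cTreg among called members with at least 40 Pggt1b-deficient cTreg counts and no overlap; up to 4 per direction between the cTreg groups; up to 3 per direction in the interaction; the 3 largest chains; the 2 widest; and 2 on each side of each threshold. Gene lists, cell type markers and motifs were not analysed here.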

Additional observations from a re-analysis of the deposited data

Results flagged for a closer look

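At 4 members the eTreg minus cTreg difference differed between genotypes in edgeR's interaction test, each higher in Pggt1b-deficient cells than in WT cells. At 2 of the 4 the pooled fall was smaller in Pggt1b-deficient cells, and at the other 2 the pooled eTreg level was above the cTreg level there. The rule used 3 of the 4 groups in this test. At chr11:45478910-45479065 the interaction was 2.53 ± 0.56 on the log2 scale (SE, edgeR adjusted p = 0.00991), and it was lost in 3 of 14 alternatives: without the second WT cTreg, Pggt1b-deficient cTreg or Pggt1b-deficient eTreg library (adjusted p over the alternatives 0.00177 to 0.0809). At chr2:140610484-140610687 it was 2.45 ± 0.66 (SE, edgeR adjusted p = 0.0446), lost in 8 of 14 (0.0292 to 0.210). These are the 2 with no pooled fall in Pggt1b-deficient cells, and at both the Pggt1b-deficient cTreg level was below that of WT cTreg.

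At chr3:156073015-156073561 the interaction was 1.05 ± 0.28 (SE, edgeR adjusted p = 0.0423), lost in 7 of 14 alternatives (0.00967 to 0.326). WT cTreg had 53.1 and 49.1 CPM and WT eTreg 12.5 and 15.6 CPM there, and Pggt1b-deficient cells 40.4 and 29.2 CPM in cTreg and 15.1 and 27.6 CPM in eTreg. This site lies at the upper edge of the window. The fourth, chr13:12599747-12600024, falls outside the naming rule and was chosen after its values were seen. Its interaction was 0.96 ± 0.23 (SE, edgeR adjusted p = 0.0213), with 42.5 and 42.7 CPM in WT cTreg and 18.8 and 20.2 CPM in WT eTreg. Pggt1b-deficient cTreg had 30.5 and 26.6 CPM and Pggt1b-deficient eTreg 23.9 and 28.8 CPM. These 2 groups overlapped, and the log2 fold change between them was -0.12 ± 0.19 (SE, edgeR adjusted p = 0.754), so a fall in deficient cells is not established there.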

How the results depend on the processing

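Over 8 alternatives the members' median log2 ratio between the cTreg groups ran from -0.10 to 0.00. The median from cTreg to eTreg in Pggt1b-deficient cells ran from -1.28 to -0.95. Each moved by less than its SD over pairs of single libraries, 0.054 and 0.176. The alternatives that leave out 1 library draw on those same libraries, so they could hardly exceed it and this is a weak check. Counts of called members moved more. From cTreg to eTreg in Pggt1b-deficient cells, where 534 were called, limma-voom with group weights called 201, a fit on only the 4 libraries compared 286, counts thinned to the smallest library 274, and leaving out 1 library 219 to 502. Between the cTreg groups, where 22 were called, these gave 61, 59, 2 and 3 to 41, and DESeq2 gave 6. The interaction gave 1 with thinned counts, beside 4 in the main fit, where 0.433% and 1.51% of all sites tested were called. Without the first or the second Pggt1b-deficient eTreg library, the members' median log2 interaction was 0.32 or 0.07, beside 0.21. From WT cTreg to WT eTreg thinned counts called 452 of the 876 members that could be tested at that depth. They called 14.2% of all sites tested, against 28.7% in the main fit. Between the eTreg groups the single call became 0 without the filter on low counts, with the replicate block, in DESeq2, in limma-voom and with only 4 libraries, 4 with thinned counts, and 0 to 17 with 1 library left out; without the second Pggt1b-deficient eTreg library 16 of the 17 were lower. The number of members was 636 at 8 CPM or more, 518 with a window of 0.25, 2355 with a window of 1, and 972 to 1270 with 1 library left out. Without the first Pggt1b-deficient eTreg library, 613 of the 1152 members (53.2%) met the rule.

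With the replicate block the counts of calls were 506, 20, 4, 1152 and 0 in the same order. The shares of all sites tested were 8.42%, 2.08%, 1.38%, 26.8% and 10.3%. The numbers pair nothing that the labels name: correlations of same-numbered deviations were -0.016 to 0.057 over the 6 pairs of groups. Depth limits the window: members had a median of 14 counts over the Pggt1b-deficient eTreg libraries.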
